A study of Arabidopsis thaliana with 3 samples.

Results

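A set of 55 genes had transcripts at least 1.5-fold more abundant in ABAP1OE than in wild-type plants both in flower buds and in open flowers, out of 5413 genes that could be measured with a probe of their own. Membership was decided by the deposited ratios themselves. A gene was kept if its log2 ratio of ABAP1OE over wild type was at least 0.585 (1.5-fold) and below 6.6 at both of these stages, whatever its ratio in siliques. The 55 genes were then split by whether the silique ratio also reached 0.585, which gave 16 genes that were higher at all 3 stages and 39 that were higher in buds and open flowers but not in siliques. Flower bud and open flower values are therefore given as a description. The silique ratios, the other probes on the array and the place of the genes along the chromosomes were not used to choose the members.

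Transcripts of Arabidopsis thaliana plants expressing ABAP1 from the CaMV 35S promoter (ABAP1OE, in the Col-0 ecotype) were compared with those of wild-type Col-0 plants on 2-colour arrays of long oligonucleotides. Each ABAP1OE pool was set against wild-type material of the same age, namely stage 13 for the flower buds, stage 14 for the open flowers, and stages 15 and 16 for the siliques. The 35S promoter is active in most tissues of the plant, so the transgene was not restricted to the flower or to the gametophytes, and plants homozygous for it were not available to the study. For every probe the 3 biological replicates of a stage were merged by the authors into a single ratio, so that no test, SD or p-value could be computed for any gene. Within a pool of whole organs, a change in the number of cells that express a gene and a change in its RNA per cell cannot be told apart.

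ABAP1 is a plant protein with armadillo repeats and a BTB domain, folds through which proteins bind other proteins. It is known to act with TCP transcription factors and with the complex that licenses DNA for replication, and to repress genes such as those of the licensing factor CDT1. It was also studied in the development of pollen and of the embryo sac. At the stages sampled here the flower passes through anthesis, pollination and the first growth of the fruit.

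Over the whole table, 213 of 5413 genes (3.93%) were 1.5-fold or more higher in ABAP1OE flower buds, and 226 (4.18%) were higher in open flowers. Both conditions were met by 55 genes (1.02%), which were 25.8% of the genes higher in buds and 24.3% of the genes higher in open flowers. No gene that was higher at both stages was left out by the upper bound of 6.6. The median log2 ratio of the 55 genes was 0.90 in flower buds, with a range from 0.585 to 2.70, and 0.97 in open flowers, with a range from 0.59 to 2.22. The median over all 5413 genes was 0.01 in flower buds and -0.01 in open flowers. Ratios of 2-fold or more were found for 22 of the 55 genes in flower buds, for 27 in open flowers and for 14 at both stages. The bud ratio was the larger of both values for 31 genes, the open flower ratio for 22, and 2 genes had equal ratios.

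**Figure D1:**
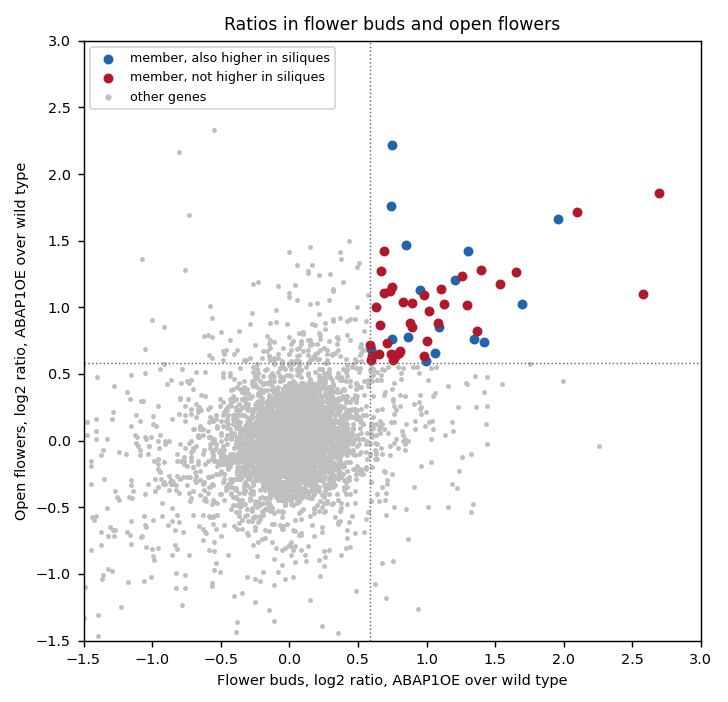
Log2 ratios of ABAP1OE over wild type in flower buds (x axis) and open flowers (y axis), each point 1 gene with a probe of its own. Dotted lines mark the threshold of 0.585, and 195 of the 5413 genes, none of them a member, lie outside the window. The 16 members also higher in siliques (blue) and the 39 that were not (red) are mixed over the same area.

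The threshold fell within a continuous range of values. Just inside it were AT4G36460, with log2 ratios of 0.585 in flower buds and 0.71 in open flowers, AT3G51410 (0.59 and 0.60) and AT5G41630 (0.99 and 0.59). Just outside it were AT5G26290, with 0.575 in flower buds and 1.09 in open flowers, AT1G26390, with 1.76 and 0.575, and RAP74, with 0.93 and 0.56. Folds in the table have 2 decimals, and the last member and the first gene left out differed by 1 step of 0.01-fold.

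The 3 highest bud ratios of the set belonged to genes without a higher level in siliques, while the highest open flower ratio, that of AT5G55770, belonged to a gene with one. AT3G53770 stood at 2.70 on the log2 scale in flower buds (6.48-fold) and at 1.86 in open flowers (3.62-fold), against -0.39 in siliques. AT1G48200 was at 2.10 in flower buds (4.28-fold) and 1.71 in open flowers (3.28-fold), and at 0.23 in siliques. Both genes were thus well above wild type at the earlier stages and within 1.5-fold of it in siliques. AT2G47115 had the second-highest bud ratio of the 55 genes at 2.58, with 1.10 in open flowers and -0.31 in siliques. These 3 loci carry no gene symbol in the annotation used here, and no role is given for them.

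Among the 16 genes higher at all 3 stages, AT4G16220 had the largest values in flower buds and open flowers combined, at 1.96 in buds (3.89-fold), 1.66 in open flowers (3.16-fold) and 0.77 in siliques (1.70-fold). AT5G24480 was the only one of the 55 genes at 2-fold or more at every stage, with log2 ratios of 1.21, 1.20 and 1.10 from buds to siliques. AT5G18940 was at 1.30 in buds, 1.42 in open flowers and 0.67 in siliques. AT2G24460 was at 1.70, 1.03 and 0.76. Its best match is a RING finger protein, by the description that accompanies the study. RING finger proteins are best known as ubiquitin ligases, which mark other proteins for degradation.

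**Figure D2:**
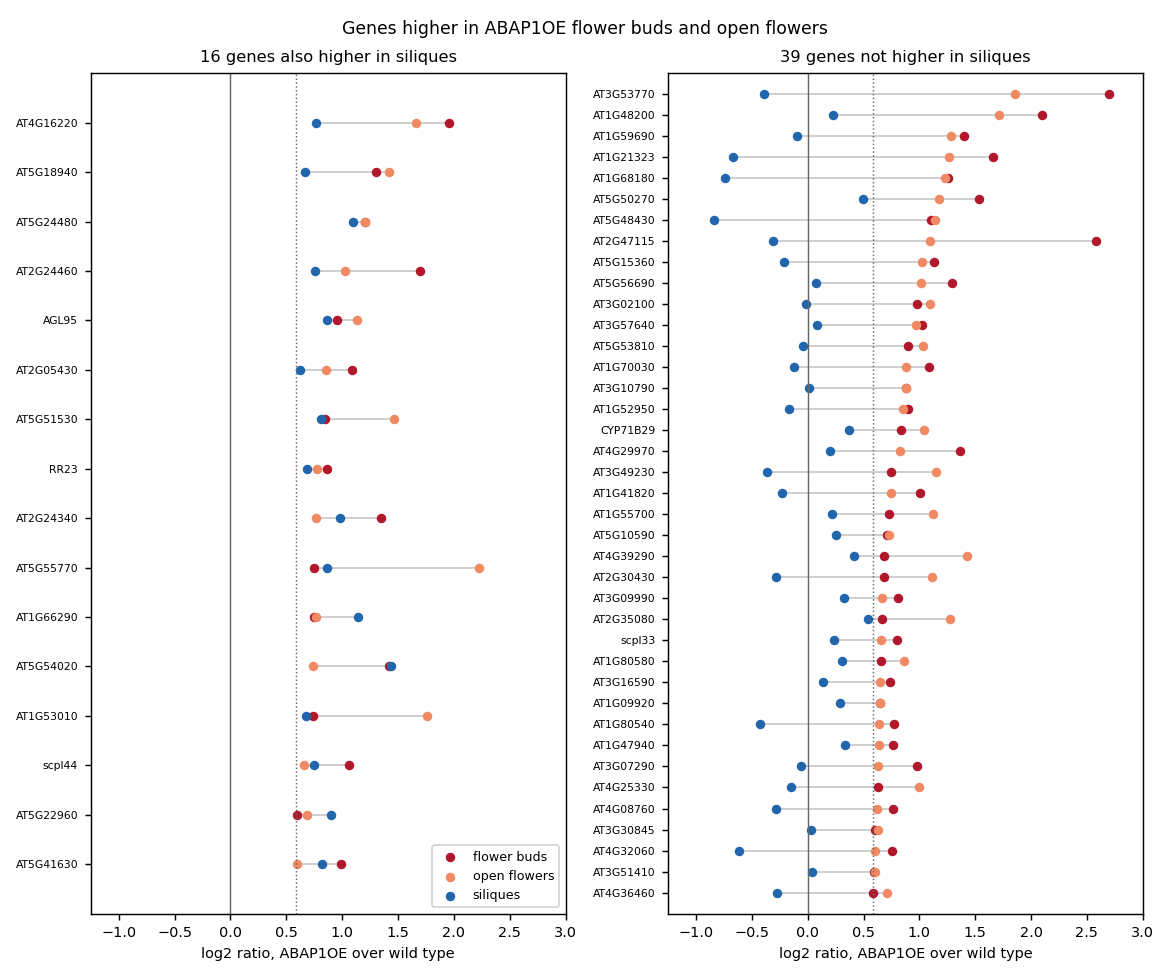
Log2 ratios of ABAP1OE over wild type (x axis) of the 55 genes, 1 row per gene, in flower buds (red), open flowers (orange) and siliques (blue), with the 16 genes also higher in siliques on the left and the 39 others on the right. The solid line marks 0 and the dotted line 0.585. Silique ratios on the right run from -0.84 to 0.54, and those on the left from 0.62 to 1.43.

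Gene symbols other than the locus name were given for 5 genes of the set in the RefSeq annotation (9.09% of 55, against 9.87% of the 5413 genes). Serine carboxypeptidase-like proteins are relatives of secreted peptidases, some of which work as acyltransferases of secondary metabolism. Of these, scpl44 had log2 ratios of 1.06 in buds, 0.66 in open flowers and 0.75 in siliques, while scpl33 had 0.80, 0.66 and 0.24. Both genes had the same ratio in open flowers, and scpl44 had the higher one in buds and siliques. The other 8 genes named SCPL with a probe of their own were between -0.62 and 0.42 in flower buds and between -0.54 and 0.33 in open flowers, so none of them reached 1.5-fold higher at either stage.

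RR23 belongs to the response regulators, a family with members that relay the cytokinin signal from histidine kinases. It was at 0.86 in buds, 0.77 in open flowers and 0.69 in siliques. The other measured genes with a response regulator symbol, RR18 (0.12, -0.41 and -0.45) and RR19 (0.04, -0.04 and -0.11), were within 1.5-fold of wild type at all 3 stages. AGL95 encodes a MADS-box protein, of the transcription factor family that includes the regulators of floral organ identity. Its ratios were 0.96 in buds, 1.13 in open flowers and 0.86 in siliques. Of 16 AGAMOUS-like genes with a probe of their own, AGL95 alone was 1.5-fold or more higher in flower buds, and AGL77 was the other one higher in open flowers, at 1.28, with -0.76 in flower buds. CYP71B29, of the cytochrome P450 monooxygenases, was at 0.83 in buds, 1.04 in open flowers and 0.37 in siliques. The other 3 measured genes with a symbol of cytochrome P450 family 71 were between -0.15 and 0.30 in flower buds and between -0.68 and 0.29 in open flowers. Relatives were found by gene symbol, which 9.87% of the 5413 genes have, so relatives listed by locus name alone may have been missed. These families were looked up after the members were known. Since the members were chosen for their bud and open flower ratios, their place above relatives at those stages is a description. In siliques the order was mixed. CYP71B6 had the highest silique ratio of its family at 0.59, SCPL49 at 0.34 was above scpl33, and AGL33 at 0.77 was close below AGL95.

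**Figure D3:**
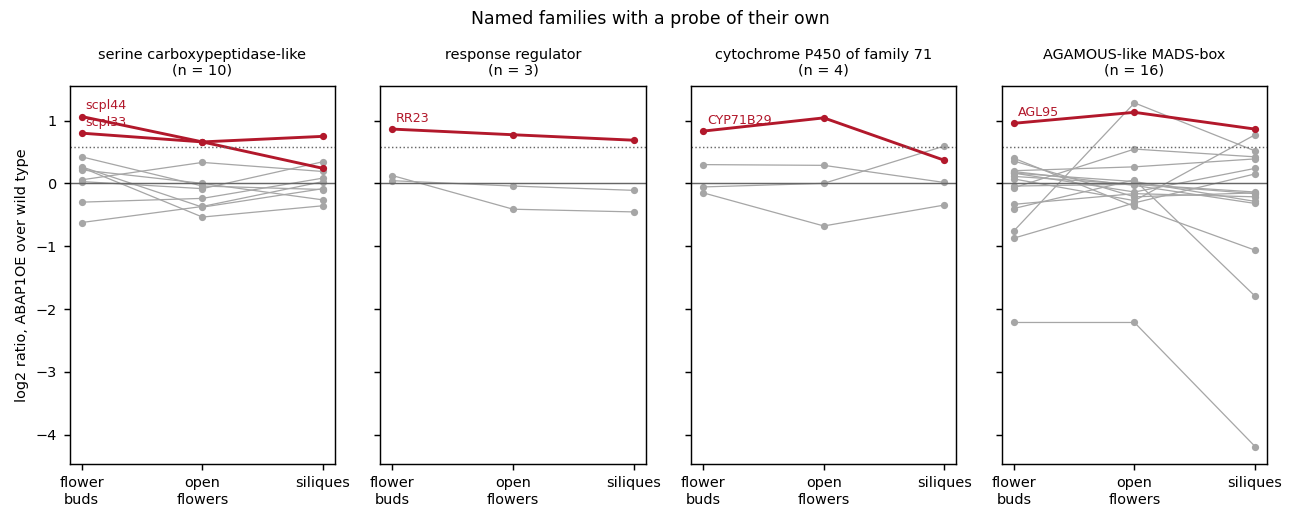
Log2 ratios of ABAP1OE over wild type (y axis) in flower buds, open flowers and siliques for the named families that hold a member. Each line is 1 gene with a symbol of the family and a probe of its own. Members (red, labelled) were chosen to lie above the dotted threshold of 0.585 at the first pair of stages, and in siliques they overlap with their relatives (grey), of which CYP71B6 is at 0.59 and AGL33 at 0.77.

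Silique ratios split the 55 genes but did not choose them. The 55 genes had a median log2 ratio of 0.21 in siliques, against -0.01 over all genes, and 35 of the 55 (63.6%) were above 0, as were 46.7% of all genes. A ratio of 1.5-fold or more higher in siliques was found for 16 of the 55 genes (29.1%), beside 309 of 5413 genes (5.71%) in the whole table. A ratio of 1.5-fold or more lower was found for 4 genes (7.27%), beside 335 of all genes (6.19%), so the share on the lower side lay near that of the whole table. The remaining 35 genes were within 1.5-fold of wild type. When probes that list several genes were averaged in, 103 genes met the rule, of which 8 (7.77%) were higher and 15 lower in siliques, beside 4.16% of all genes higher in that setting, with a median of 0.03. At 2-fold for every stage, 1 of 14 genes was higher and 0 lower, with a median of -0.01.

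The silique shares were set beside those of genes that were higher at 1 of the earlier stages. Of the 158 genes higher in flower buds and not in open flowers, 26 (16.5%) were higher in siliques, with a median silique ratio of 0.03. Of the 171 genes higher in open flowers and not in flower buds, 37 (21.6%) were higher in siliques, with a median of 0.16. Genes higher at neither stage numbered 5029, of which 4.57% were higher in siliques. The share was thus larger for the 55 genes than for each of these groups, a difference that was not tested, because genes are not replicates and each stage has 1 sample. The order did not hold at 2-fold, where 3 of the 55 genes (5.45%) and 17 of the 171 genes higher in open flowers alone (9.94%) had silique ratios of 1 or more. Of the 151 genes 1.5-fold or more lower in both flower buds and open flowers, 68 (45.0%) were also lower in siliques, beside 6.19% of all genes. Those 151 genes had median ratios of -1.80 in flower buds and -1.32 in open flowers, and spots without any probe had -2.21 at each stage.

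**Figure D4:**
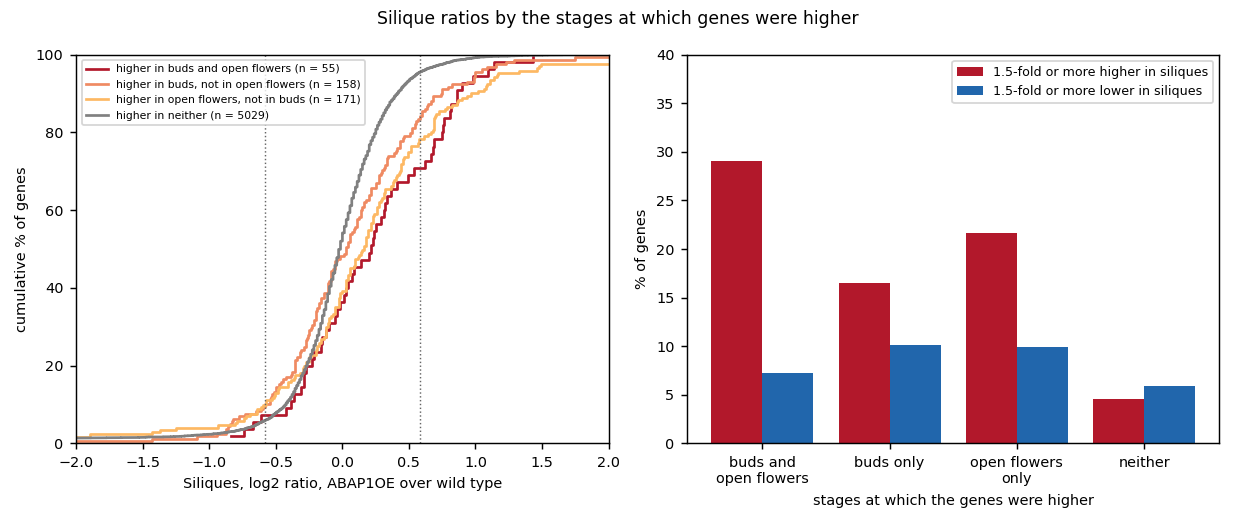
Silique log2 ratios of ABAP1OE over wild type for genes grouped by the stages at which they were 1.5-fold or more higher, as cumulative percent of genes (left, x axis from -2 to 2) and as percent of genes 1.5-fold or more higher (red) or lower (blue) in siliques (right). The bars for higher genes stand at 29.1% for the 55 genes higher in buds and open flowers, 16.5% for buds only, 21.6% for open flowers only and 4.57% for neither.

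Among the 55 genes, the size of the ratios at the earlier stages had little correlation with the silique ratio. Across the 55 genes, Pearson's r between flower buds and siliques was -0.06 and Spearman's rho -0.01, and between open flowers and siliques they were 0.08 and 0.05. These are correlations across genes of the same 3 columns, within a range cut at 0.585, and are given as a description. Over all 5413 genes, without that cut, r was 0.24 between flower buds and siliques and 0.33 between open flowers and siliques. The matching values of rho were 0.05 and 0.26. Of the 14 genes at 2-fold or more in both flower buds and open flowers, 4 (28.6%) were 1.5-fold or more higher in siliques, and of the other 41 genes 12 were (29.3%). The median silique ratio of these 14 genes was -0.01 and that of the 41 was 0.24, with 7 of the 14 and 28 of the 41 above 0.

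In siliques the highest ratio of the 55 genes belonged to AT5G54020, at 1.43 (2.70-fold), with 1.42 in flower buds and 0.74 in open flowers. It was followed by AT1G66290 at 1.14 in siliques, with 0.75 in flower buds and 0.77 in open flowers, AT5G24480 at 1.10, AT2G24340 at 0.98 and AT5G22960 at 0.90. For AT5G54020, AT1G66290 and AT5G22960 the silique ratio was larger than both earlier ratios, which was so for 3 of the 55 genes. For AT5G54020 the margin was slight, at 2.70-fold in siliques against 2.67-fold in flower buds. AT2G24340 was at 1.34 in flower buds and 0.77 in open flowers, and AT5G22960 at 0.59 and 0.69. The rest of the 16 genes had their largest value in flower buds or in open flowers. AT5G55770 was the clearest case, with 0.75 in buds, 2.22 in open flowers (4.66-fold) and 0.86 in siliques, with AT1G53010 at 0.74, 1.76 and 0.68.

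Open flowers also gave the larger value for AT5G51530, at 0.85 in buds, 1.46 in open flowers and 0.81 in siliques, while AT2G05430 was highest in flower buds, at 1.09, 0.86 and 0.62. AT5G41630, one of the genes at the threshold, was at 0.82 in siliques. With scpl44, RR23 and AGL95 these complete the 16 genes higher at all stages.

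At the other end, 4 genes were 1.5-fold or more lower in ABAP1OE siliques while higher in flower buds and open flowers, a share (7.27%) near that of all genes lower in siliques (6.19%). AT5G48430 had log2 ratios of 1.10 in buds, 1.14 in open flowers and -0.84 in siliques. AT1G68180 was at 1.26, 1.23 and -0.74, AT1G21323 at 1.66, 1.26 and -0.67, and AT4G32060 at 0.76, 0.60 and -0.61. The first 3 of these were at 2-fold or more at both earlier stages, so they were among the genes with the highest ratios of the set. AT1G80540 was next lowest in siliques, at -0.42, with 0.77 in flower buds and 0.64 in open flowers. Whether the ratio of any of these genes differed between stages could not be tested on 1 combined value per stage.

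Of the genes not higher in siliques, AT1G59690 was at 1.40 in buds, 1.28 in open flowers and -0.10 in siliques, while AT5G50270 was at 1.54, 1.18 and 0.50. AT5G56690 had 1.29, 1.01 and 0.07, and AT5G15360, described by the study as encoding an unknown protein, had 1.13, 1.02 and -0.21. These 4 genes were all at 2-fold or more at the first pair of stages and within 1.5-fold of wild type in siliques. The other 35 genes not higher in siliques, among them those described above, spanned the whole range of the group, from 0.585 to 2.70 in flower buds and from 0.60 to 1.86 in open flowers.

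Below 2-fold at 1 of the earlier stages, several of these genes leaned to open flowers. AT4G39290 was at 0.69 in buds, 1.42 in open flowers and 0.41 in siliques, AT2G35080 at 0.67, 1.28 and 0.54, and AT3G49230 at 0.75, 1.15 and -0.37. Others leaned to flower buds, such as AT4G29970 at 1.37, 0.82 and 0.20 and AT1G70030 at 1.08, 0.88 and -0.12. The gap between both stages was under 0.2 on the log2 scale for 27 of the 55 genes, so for about as many genes the ratios of buds and open flowers were close as were apart.

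Every one of the 55 genes was measured by 1 probe of its own, and none shared its 3 ratios with another probe, so no second measurement of the same kind exists for any of them. Probes that list a member together with other genes were not used by the rule and give the nearest other reading. Such probes existed for 26 of the 55 genes (47.3%, against 36.2% of all genes), on 25 distinct sets of values, because AT3G10790 and AT4G29970 are listed on the same one. Across these 26 genes the median log2 ratio in flower buds was 1.01 on the own probe and 0.02 on the shared probes, and in open flowers it was 0.87 and 0.06. In siliques the medians were 0.41 on the own probe and 0.10 on the shared probes. The shared value was the lower one for 25 of 26 genes in flower buds and for all 26 in open flowers. Own values at these stages were chosen to be at least 0.585, so this order was favoured by the rule and is a description.

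Shared probes at 1.5-fold or more higher were 1 of 26 in flower buds (3.85%) and 1 of 26 in open flowers (3.85%), beside 3.86% and 4.08% of all 7493 such probes with values. None of the 26 met the rule on the shared probe. The exception in flower buds was AT5G24480, at 1.21 on its own probe and 1.26 on the probe it shares with AT2G04378, AT5G35760 and AT5G01080, with 1.20 and 0.45 in open flowers and 1.10 and -1.03 in siliques. The exception in open flowers was AT1G55700, at 1.12 on its own probe and 1.12 on the probe it shares with AT5G42280, AT3G13590 and AT2G23100. In flower buds AT1G55700 was at 0.73 on its own probe and 0.54 on the shared one, and in siliques at 0.21 and 1.33. AT5G24480 had the smallest gap between both kinds of probe in flower buds, and AT1G55700 the smallest in open flowers.

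The widest gap was that of AT2G47115, at 2.58 in flower buds on its own probe and -0.26 on the probes it shares with 4 other genes. AT4G16220 was at 1.96 on its own probe and -0.08 on the probe it shares with AT4G16230, and AT5G18940 at 1.30 and -0.585. AGL95 was at 0.96 on its own probe and -0.54 on the probe it shares with AGL96, AGL48 and AGL41. For scpl44 the values in flower buds were 1.06 and 0.08, and for scpl33 they were 0.80 and 0.16. Own and shared probes had little correlation in the table as a whole. Across the 1958 genes with both kinds of probe, Pearson's r was 0.04 in buds, 0.05 in open flowers and 0.07 in siliques. A low r does not show which of both kinds of probe gives the level of the listed gene. Which of the listed genes a shared probe reports is not known, and how well an own probe reports its gene was not tested.

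**Figure D5:**
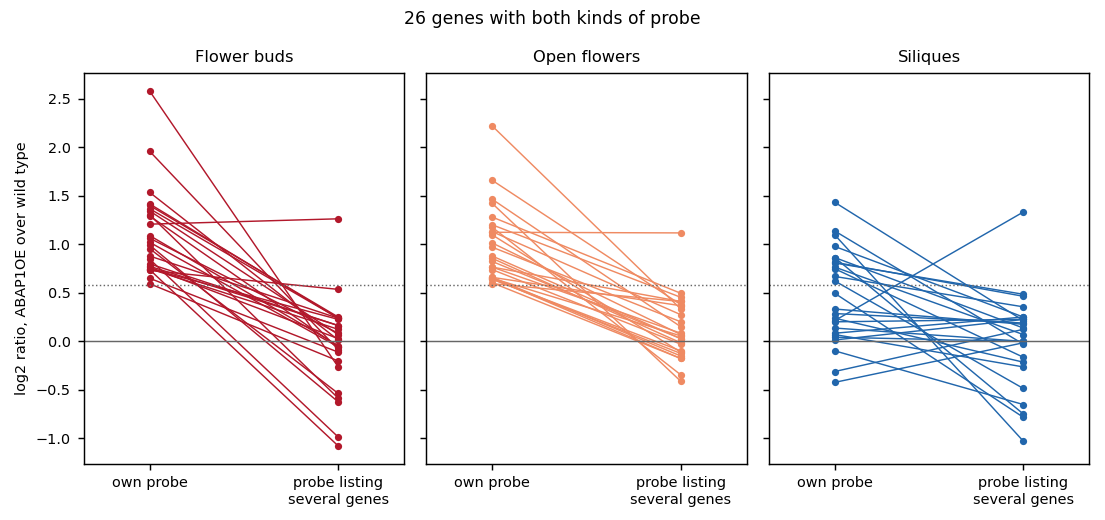
Log2 ratios of ABAP1OE over wild type (y axis) of the 26 genes of the set that also lie on probes listing several genes, with the own probe on the left and the shared probes on the right of each panel, 1 line per gene. In flower buds and open flowers the shared values centre near 0 (medians of 0.02 and 0.06), with AT5G24480 in flower buds and AT1G55700 in open flowers above the dotted threshold of 0.585.

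The 55 genes were spread over all chromosomes, with 16 on chromosome 1, 7 on chromosome 2, 11 on chromosome 3, 7 on chromosome 4 and 14 on chromosome 5. This was 1.19%, 0.87%, 0.94%, 0.88% and 1.08% of the measured genes of each chromosome. Of the 16 genes higher at all stages, 8 lay on chromosome 5 and 0 on chromosome 3. Chromosome 5 held 1297 of the 5413 measured genes and 14 of the 55 genes, and chromosome 3 held 1167 and 11. Whether the 16 genes were spread unevenly over the chromosomes was not tested. No member lay directly beside another in the order of the RefSeq gene table. The closest pairs were AT1G80540 and AT1G80580, with 4 genes between them, and AT1G52950 and AT1G53010, with 5. Own probes existed for 21 of the genes directly next to a member, of which 2 were 1.5-fold or more higher in flower buds and 0 in open flowers. Over all genes these shares were 3.93% and 4.18%, so counts this small among 21 neighbours say little. The median ratio of these 21 neighbours was -0.04 in flower buds and -0.03 in open flowers. The neighbour higher in flower buds by the larger amount was AT5G62110, beside RR23, at 1.42, with 0.37 in open flowers.

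Spots without a plant transcript were read out in the same way. Of 71 control spots, 48 had all 3 ratios, among them 36 empty spots. None of the 48 met the rule, and of the 36 empty spots 1 was 1.5-fold or more higher in buds, 1 in open flowers and 2 in siliques. Since most empty spots lay on the lower side, the count of 0 was largely set by their level. They had a median log2 ratio of -2.21 (4.64-fold lower) at each stage. Only 3 values of members were as large in the other direction, those of AT3G53770 and AT2G47115 in flower buds and of AT5G55770 in open flowers, which at 4.66-fold lay close to 4.64-fold. Intensities were not analysed here, so how bright the members' spots were is unknown, and ratios alone do not show which tissue a pool held.

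None of the 55 genes was on any of 13 lists of marker and pathway genes (late pollen, tapetum, embryo sac, embryo and seed storage, photosynthesis, DNA replication and cell cycle, ABAP1 and its partners, floral organ identity, jasmonate, clock, heat shock, defence and flavonoid genes). Only 7 genes of these lists had a probe of their own, all of them on the late pollen, embryo sac and clock lists. Genes of the other lists could therefore not be members. The 5 embryo sac genes had medians of -0.66 in flower buds and -0.11 in open flowers, with the egg cell gene EC1.1 at -1.61 in flower buds and UBC31, also of the embryo sac list, at -2.19. PLIM2b, an actin-bundling gene of pollen, was at -0.98 in flower buds and -0.29 in open flowers. GI, of the circadian clock, was at 0.19 in flower buds. In flower buds all 6 measured gametophyte markers had ratios below 0, and 4 of them were 1.5-fold or more lower, beside 7.7% of all genes. In open flowers 0 of the 6 were 1.5-fold or more lower, beside 5.58% of all genes, and AGL61 (0.06) and EC1.5 (0.03) were above 0. Their part in the ratios of the 55 genes was not tested. ABAP1 itself had no probe of its own in the annotation used here and was not analysed.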

How the data were processed

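The deposited values are log2 ratios of ABAP1OE over wild type, which the authors made from 2-colour arrays (Operon Arabidopsis Genome Oligo Set) with RNA of each genotype labelled with both dyes. How background was corrected, how arrays were normalized and how the 3 biological replicates were averaged is not given in the sources used here. The paper places raw data processing in its supplementary text, which was not used here. The direction of the flower bud column was taken from the labels and checked against the signs in the study's list of bud genes, where 46 of 46 genes had the same sign. That of the other columns rests on their labels. Ratios were limited to 100-fold (6.64 on the log2 scale). The number of arrays behind a ratio limits its precision.

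Of 26474 probes for transcripts, those with exactly 1 gene symbol in the platform annotation were matched to the TAIR10.1 RefSeq gene table by gene identifier (28 did not match) and averaged per locus, which gave 5413 genes. Of 284 genes with several probes, 228 had identical ratios on all of them, so repeated probes are mostly not separate readings. Genes were counted as higher at 1.5-fold. The genes named were the 10 with the largest lower ratio in each silique subgroup, the 5 highest and 5 lowest in siliques and those next to the threshold, with any member on a list of marker genes or with several probes. Others were named after their values were seen. The members and lists were chosen with earlier results of these data known. Alternatives were 2-fold, the probe farthest from 0, probes of several genes kept, centred columns, and values beyond 4.64-fold left out. The counting was tested on simulated data. Sequences of the members were not used here. Scripts ran in Python 3.11.15 with pandas 2.3.3, numpy 2.4.6 and scipy 1.17.1, and plots were drawn with matplotlib 3.10.9.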

Additional observations from a re-analysis of the deposited data

Results flagged for a closer look

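Silique ratios opposite to those of flower buds and open flowers, by 1.5-fold or more on each side, were found for 4 of the 55 genes (7.27%), a share near the 6.19% of all genes that were lower in siliques. They were -0.84 for AT5G48430, -0.74 for AT1G68180, -0.67 for AT1G21323 and -0.61 for AT4G32060. The difference between stages was not tested, there being a single merged ratio for each of them.

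Probes left out of the gene table also met the rule. Among probes with all 3 ratios these were 80 of 7493 that list several genes (1.07%) and 105 of 12273 without a gene symbol (0.856%), beside 56 of 5781 with 1 gene symbol (0.969%). Of 48 control spots with all 3 ratios 0 met it, but 36 of these are empty spots, mostly on the lower side, so this count says little. Of the probes that met the rule, 21 of the 80, 31 of the 105 and 16 of the 56 were also 1.5-fold or more higher in siliques. These are counts of probes, which may not all be separate readings. Counted by gene, with probes of several genes averaged in, 8 of 103 genes were higher in siliques. Of all 7493 probes that list several genes 6.46% were higher in siliques, and of the 5413 genes with an own probe 5.71%. No such share is given here for probes without a gene symbol. The 1 probe with a single gene symbol that met the rule without its gene being a member belongs to AT4G07670, which has 16 probes in the annotation with ratios from -2.48 to 1.89 in flower buds.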

How the results depend on the processing

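No paired analysis was possible because the replicates of a stage were merged before deposit and nothing was tested. For the same reason no replicate could be left out. Centring the columns changed nothing, since their medians are 0, and the probe farthest from 0 (56 genes, 16 also higher in siliques) is no check of the 55 genes, each of which has 1 probe. Without values beyond 4.64-fold, 52 genes remained, all of them among the 55, with 15 also higher in siliques.

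With 2-fold in place of 1.5-fold at every stage, 14 genes met the rule, 1 of them (7.14%) was also higher in siliques, beside 1.24% of all genes, 0 were lower, and the median silique ratio was -0.0136 in place of 0.21. With probes of several genes averaged in, 103 of 13976 genes met the rule, of which 33 were among the 55. Of the 103, 8 (7.77%) were also higher in siliques, beside 4.16% of all genes in that setting, and 15 were lower, with a median of 0.03. Of the 26 members on shared probes, 4 still met the rule. In that setting the bud ratio of AT5G51530 was -0.0688 in place of 0.85. It was the only one of the 81 values of 27 named members to change sign after standing past 1.5-fold. Another 39 values moved by at least a typical SD between differing probes of 1 gene. This SD came from the median variance over genes (0.18 in buds, 0.17 in open flowers, 0.27 in siliques). From the mean variance it was larger, at 0.50, 0.39 and 0.55. Both leave out values beyond 4.64-fold. Among members outside the 27, the bud ratio of AT3G16590 went from 0.74 to -0.17. The 33 values that did not change belong to genes without a shared probe, so they could not change.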
